A study of Mus musculus with 32 samples.

Results

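The cells described here are Col15a1/Icam1-selected fibroblasts of mouse epididymal fat, 153 of 6338 stromal cells and of 22703 cell barcodes in the series. They were picked by raw UMIs (unique molecular identifiers, each standing for 1 captured RNA molecule). A first filter kept the 19564 barcodes in which 300 or more genes were detected and no more than 10% of UMIs were mitochondrial. Of these, stromal cells had at least 50 UMIs of the matrix genes Dcn, Col3a1, Col1a1 and Col1a2 and none of Ptprc, Pecam1 or Cdh5, which mark blood and endothelial cells. The members then had no UMI of Pi16 or Dpp4 and at least 8 UMIs of Col15a1, Icam1 and Pparg together. They also had under 5 UMIs of Sult1e1, Dpep1 and Inmt, under 3 of Tnc, Cnn1 and Ltbp2, under 2 of Egr4 and under 5 of 6 cell-cycle genes.

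The series compared the stromal vascular fraction, the cells left when fat cells are removed, of C57BL/6 mice labelled wild-type (WT) or CD169-DTR. In CD169-DTR mice a receptor for diphtheria toxin is expressed under control of Siglec1 (CD169), a gene of tissue-resident macrophages, and toxin kills the cells that express it. Mice of both genotypes ate normal diet (ND) or high fat diet (HFD) for 16 weeks. Mice of all 4 groups, WT included, then received diphtheria toxin for 7 days. CD45+ and CD45- cells were sorted separately, with most F4/80hi cells and Ly6Chi monocytes left out, and recombined in equal parts, so that the share of stromal cells in a library was set by the sort. The number, age and sex of the mice are not given in the sources used here. Each group is 1 library, deposited as 8 sequencing-run records, so no value below has a replicate and none is tested. Intervals are exact 95% intervals and cover counting error only.

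In adipose tissue, fibroblast-like progenitors are commonly divided into early Pi16/Dpp4 cells, which lie in the connective tissue sheath, and committed preadipocytes nearer the vessels, marked in mice by Icam1, Col15a1 and the basement membrane collagens. Commitment is driven by Pparg, the nuclear receptor that switches on fat cell genes, and its targets include Lpl and Fabp4. Fibroblasts of this tissue also produce complement, chemokines and acute phase proteins, and they respond to interferon.

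The libraries held 3.77e+07 to 6.48e+07 UMIs. Their 19564 cells had median depths of 6218 to 9202 UMIs. Across those cells Siglec1 was at 0.136 CPM (counts of a gene per 1000000 UMIs) in the library labelled ND WT, 3.45 in ND CD169-DTR, 1.09 in HFD WT and 3.05 in HFD CD169-DTR. Siglec1 was thus higher in both libraries labelled CD169-DTR. The sort removed most F4/80hi cells, and Siglec1 gives no check of the labels in what was sequenced. Sequences of 298 barcodes occurred in more than 1 library. Those of 4 members did, all in ND CD169-DTR, with 27597 to 39493 UMIs, and no barcode sequence was a member in 2 libraries. The list counts of the comparison between diets that uses this library are also given without these 4 cells.

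Members made up a small part of the stromal cells in every library. In ND WT there were 4 of 1057 stromal cells (0.378%, interval 0.103 to 0.966%). In ND CD169-DTR there were 25 of 1033 (2.42%, interval 1.57 to 3.55%). In HFD WT there were 15 of 1621 (0.925%, interval 0.519 to 1.52%). In HFD CD169-DTR there were 109 of 2627 (4.15%, interval 3.42 to 4.98%). The share was higher in the library labelled CD169-DTR on each diet, and the 2 intervals of each pair did not meet. Median depth of the members was 8725, 12060, 10487 and 10723 UMIs in that order of libraries.

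This order changed when 1 step of the rule was lifted, the ceiling on Sult1e1, Dpep1 and Inmt, 3 genes that mark another set of stromal cells. Before it, 350, 434, 384 and 805 cells passed for Col15a1, Icam1 and Pparg and lacked Pi16 and Dpp4 (ND WT, ND CD169-DTR, HFD WT and HFD CD169-DTR). The median sum of Sult1e1, Dpep1 and Inmt in these cells was 34, 18, 21 and 3 UMIs. The ceiling left 4, 31, 18 and 494 of them. The ceiling on Tnc, Cnn1 and Ltbp2 then removed 370 of the 494 in HFD CD169-DTR and at most 3 cells in each of the other libraries. With every other step kept and the first ceiling lifted, the shares were 32.9%, 36.9%, 22.2% and 7.5%. HFD CD169-DTR then had the lowest share in place of the highest, while ND CD169-DTR stayed above ND WT. Without the first ceiling, the ceiling on Tnc, Cnn1 and Ltbp2 still applied. The low share of HFD CD169-DTR then leaves out the cells above that second ceiling. A difference in member share on HFD thus cannot be told apart from differences in the genes of both ceilings per cell.

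**Figure D1:**
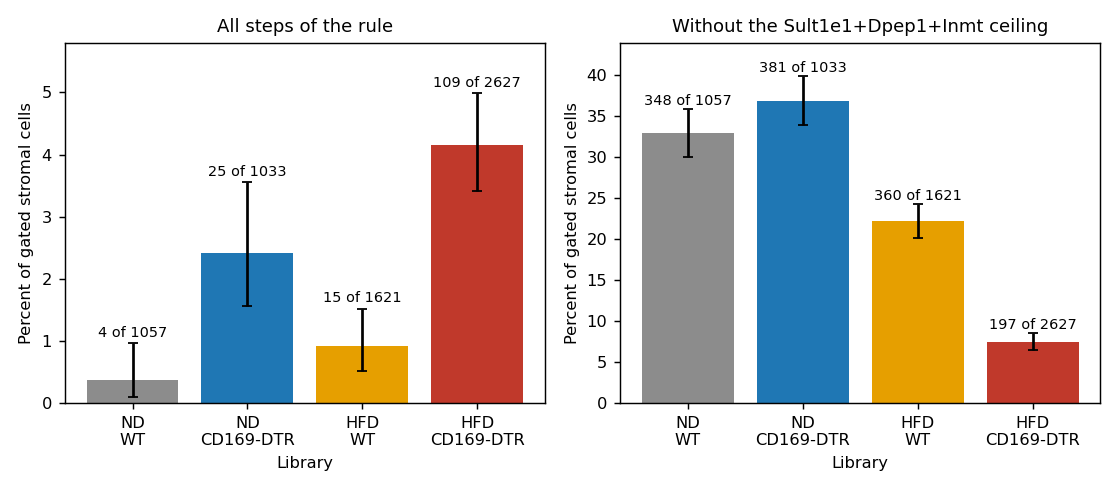
Share of gated stromal cells that were Col15a1/Icam1-selected fibroblasts (y axis, percent) in the 4 libraries, with every step of the rule and without the ceiling on Sult1e1, Dpep1 and Inmt. Bars are exact 95% intervals for counting error. With the ceiling HFD CD169-DTR is highest at 4.15%, and without it that library is lowest at 7.5%.

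The name preadipocyte was only partly borne out by its own markers. Col15a1 (chr4:47208161-47313167, plus strand, mm10), a collagen of basement membrane zones, had a UMI in 94.1% of members. Icam1 (chr9:21015985-21028817, plus strand), an adhesion molecule, had one in 79.7%. Both were used to choose the cells. Pparg (chr6:115360951-115490399, plus strand), also in the rule, had a UMI in 15 of 153 members (9.80%): 0 of 4 in ND WT, 2 of 25 in ND CD169-DTR, 1 of 15 in HFD WT and 12 of 109 in HFD CD169-DTR. The cells are for this reason called by the 2 genes that selected them.

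Genes of committed preadipocytes outside the rule were present. Lpl (chr8:68880491-68907448, plus strand), the lipase that frees fatty acids from lipoproteins, was at 928 CPM in ND WT, 1250 in ND CD169-DTR, 2578 in HFD WT and 1288 in HFD CD169-DTR. Col4a1, a basement membrane collagen, was at 1064, 1561, 2040 and 1017 CPM in the same order. Both were highest in HFD WT. Fabp4, a fatty acid carrier, was at 246, 878, 845 and 788 CPM, lowest in the 4 cells of ND WT. Pdgfra, the receptor that marks fat progenitors, was at 164, 330, 196 and 149 CPM.

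The cells most like the members were 1426 cells that passed the same gate for Col15a1, Icam1 and Pparg but had 5 or more UMIs of Sult1e1, Dpep1 and Inmt (346, 403, 366 and 311 in the 4 libraries, without the later steps). The markers of commitment were higher in those cells than in the members in most libraries. Lpl was at 2091, 2676, 2071 and 1814 CPM there, above the members everywhere but in HFD WT. Fabp4 was at 1182, 1678, 1161 and 1306 CPM, above the members in all 4 libraries. Pparg was at 36.6, 35.1, 20.1 and 14.1 CPM there and at 0, 5.32, 6.99 and 9.34 CPM in the members. The Sult1e1 ceiling thus kept cells with fewer preadipocyte transcripts. At the lower edge of the rule sum, 31 members with 8 or 9 UMIs had 869 CPM of Lpl, and 49 cells just outside with 6 or 7 had 1343. At the ceiling, 64 members with 3 or 4 UMIs of Sult1e1, Dpep1 and Inmt had 2472 CPM of Lpl and 60 cells with 5 or 6 had 2025. Lpl was not higher inside the first threshold than outside it.

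Hilpda, Scara5 and Sema3c were among the genes outside the rule that lay on the same side of the other 6185 stromal cells in all 4 libraries. Others were H2-Q7, Plin2 and Tomm20, higher in members, and Creb5, Col14a1 and Pcolce2, lower in members. In ND CD169-DTR 1 cell held 82.0% of the 439 Plin2 UMIs. The log2 interval of Plin2 in ND WT was -0.82 to 1.54. That of H2-Q7 in HFD WT, on 4 UMIs, was -0.59 to 2.67. The contrast is a description, since the same counts chose the members. Genes were ranked by the library with the smallest ratio in that direction, so the shared side was part of how they were picked. Genes higher in members also needed a minimum level in the members of every library, which 1 UMI met in ND WT (27.3 CPM). Hilpda, a lipid droplet protein, was at 54.6, 210.1, 154 and 139 CPM in members against 34.7, 117, 79.8 and 96.8 in the other stromal cells. In ND WT it had 2 UMIs, with a log2 ratio of 0.66 (interval -2.40 to 2.52). Scara5, a ferritin receptor, was lower in members, at 136, 69.2, 83.8 and 23 CPM against 407, 195, 231 and 42.9. Sema3c, a secreted guidance factor, was at 0, 13.3, 6.99 and 33.8 CPM against 151, 129, 63.9 and 55.9, with no UMI in ND WT.

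Markers of lymphocytes were scarce in the members, while those of endothelium, mature fat cells, macrophages, mesothelium and pericytes were detected in every library. Of 11 lymphocyte genes, 11, 9, 11 and 7 were at 0 in the 4 libraries, and their summed level was at most 5.3 CPM. Of 12 endothelial genes, 10, 10, 9 and 7 were at 0, and of 12 mature adipocyte genes 11, 5, 10 and 4. The rule itself set Pecam1, Cdh5 and Ptprc to 0, so such counts can in part reflect the selection. The endothelial list summed to 81.9, 23.9, 69.9 and 44.5 CPM against 98.7, 56.1, 51.6 and 71.6 in the other stromal cells. The mature adipocyte list summed to 273, 45.2, 21.0 and 55.3 CPM against 205, 176, 24.0 and 40.6. In ND WT 1 cell held 100% of the mature adipocyte UMIs. The summed level of 17 macrophage and monocyte genes was 928 CPM in ND WT, 242 in ND CD169-DTR, 2906 in HFD WT and 342 in HFD CD169-DTR, against 35836 to 54382 CPM in the immune cells of these libraries. In HFD WT 1 cell held 391 of the 416 macrophage UMIs (94.0%), and without it the level was 195 CPM. A doublet caller marked 1 member, also in HFD WT, and the cell was kept. It was the cell that held most UMIs of Lyz2 and Cd74 in that library, as described below. Of 11 mesothelial genes 5, 7, 10 and 0 were at 0, and the list summed to 1310, 303, 76.8 and 233 CPM in the members against 1246, 676, 317 and 281 CPM in the other stromal cells. In ND WT 1 cell held 60.4% of the mesothelial UMIs. Of 11 pericyte and smooth muscle genes 7, 7, 8 and 2 were at 0, and the list summed to 246, 463, 119 and 340 CPM against 157, 207, 127 and 280 CPM. The part of these markers in the results below was not tested.

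The 153 members fell along 2 axes, since a cell could reach 8 UMIs through Col15a1 or through Icam1. Col15a1 had more UMIs than Icam1, or as many, in 116 cells, and Icam1 had more in 37, a division made after the values were seen. Icam1-led cells numbered 2 in ND WT, 6 in ND CD169-DTR, 3 in HFD WT and 26 in HFD CD169-DTR. In HFD CD169-DTR 23 cells had no Icam1 and 7 had no Col15a1. Median depth there was 22218.5 UMIs in the Icam1-led cells and 9844 in the 83 Col15a1-led cells. The summed macrophage genes were at 526 CPM in the former and 221 in the latter, and the part of depth and of macrophage RNA in what follows was not tested.

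**Figure D2:**
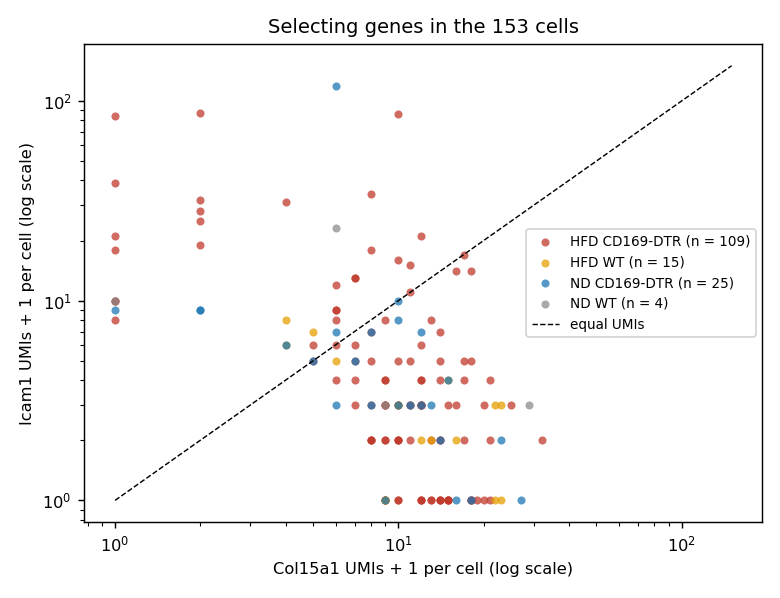
UMIs of Col15a1 (x axis) and Icam1 (y axis) in each of the 153 members, as UMIs + 1 on log axes, by library. Cells above the diagonal are Icam1-led. In HFD CD169-DTR 26 of 109 cells lie there, and few cells are high for both genes.

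In HFD CD169-DTR, preadipocyte transcripts were lower in the Icam1-led cells. A gene is called here when its summed levels differ at least 2-fold, the interval of the ratio excludes 0 on the log2 scale and it has at least 50 UMIs in all. By this rule, within that library, 784 of 4247 genes were higher in Icam1-led cells (18.5%) and 447 lower (10.5%), and the median over all genes was a log2 ratio of 0.24. Of 19 measured genes of a 28-gene committed preadipocyte list, 11 were lower in Icam1-led cells and 1 higher, with a median log2 ratio of -1.26. Lpl was at 336 CPM in Icam1-led and 1916 in Col15a1-led cells, a log2 ratio of -2.51 (interval -2.74 to -2.29). Fabp4 was at 271 and 1129 CPM. Col4a1 was at 482 and 1370 CPM and Igf1, a growth factor, at 107 and 491 CPM. All 4 genes were thus at under a log2 ratio of -1 in the Icam1-led cells. In ND CD169-DTR the 16 measured genes of this list had a median log2 ratio of -0.43 for the 6 Icam1-led cells. The median over all genes was -0.017 there. The list summed to 10038 CPM in Icam1-led and 11184 in Col15a1-led cells there, and to 12164 and 15434 CPM in HFD WT. In the 3 Icam1-led cells of HFD WT, Trf (transferrin) was at 2663 CPM against 483 in the Col15a1-led cells. Igf1 was at 517 against 212 CPM, the opposite order to that of HFD CD169-DTR. It had 13 and 25 UMIs in HFD WT, too few for a call.

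In HFD CD169-DTR part of the matrix and secreted products was also lower in Icam1-led cells. There, 9 of 23 measured proteoglycan and matricellular genes and 8 of 15 matrix proteases and inhibitors were lower in Icam1-led cells, and none was higher. Mgp, an inhibitor of calcification, was at 750 CPM in Icam1-led and 4843 in Col15a1-led cells. Sfrp1, a Wnt antagonist, was at 68.6 and 550 CPM. Of 9 measured acute phase genes 7 were lower, among them Hp (haptoglobin) at 25.3 and 545 CPM. Of 14 measured sterol synthesis genes 7 were lower and none higher. Hmox1, the heme-degrading enzyme, was at 144 and 950 CPM, and Inhba, a subunit of activin, was at 14.4 and 255 CPM. Other libraries had the opposite order for some of these genes. In ND CD169-DTR Hmox1 was at 3017 CPM in Icam1-led and 273 in Col15a1-led cells. Inhba was at 199 and 4.1 CPM there, on 26 and 1 UMIs, too few for a call. The Icam1-led cells of that library include cells of 39493 and 30270 UMIs whose barcode sequences occur in another library. Without shared barcodes the Hmox1 log2 ratio of CD169-DTR over WT on ND changed sign, to -0.36. In HFD WT Hp was at 636 and 33.9 CPM and Sfrp1 at 914 and 161 CPM.

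Another set of genes was high in the Icam1-led cells of HFD CD169-DTR. Ccl2 and Ccl7, chemokines that attract monocytes, were at 5272 and 4422 CPM in Icam1-led cells against 1289 and 1372 CPM in Col15a1-led cells. Txnip, an inhibitor of thioredoxin, was at 2689 against 268 CPM, and Atf5, a transcription factor of the stress response, at 1259 against 90.6 CPM. Neither held that order in every library. Txnip had a log2 ratio of -1.03 in ND CD169-DTR, lower in the Icam1-led cells, and was at 0 against 373 CPM in HFD WT. Atf5 was at 603 against 73.4 CPM in ND CD169-DTR but at 39.8 against 144 in HFD WT. Plin2, which coats lipid droplets, was at 1167 against 370 CPM. The clock-controlled genes Dbp and Nr1d1 were at 291 and 244 CPM in Icam1-led cells and both at 2.38 CPM in Col15a1-led cells, where each had 2 UMIs in 83 cells. Stmn4, a tubulin-binding protein, was at 303 against 5.96 CPM and Gdf15, a stress cytokine, at 184 against 5.96 CPM. H2-Q6, an MHC class I gene, was at 676 against 29.8 CPM, though its reads may be split with its near copy H2-Q7. The 26 Icam1-led cells thus carried most of the HFD CD169-DTR pool's Dbp, Nr1d1, Stmn4, Gdf15 and H2-Q6.

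**Figure D3:**
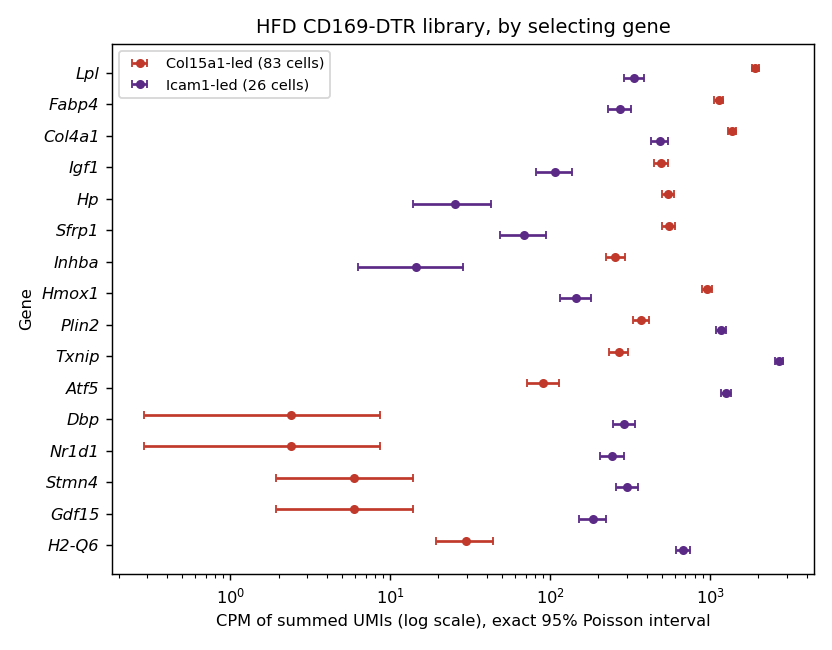
Levels (CPM, log axis) of 16 genes in the 26 Icam1-led and 83 Col15a1-led cells of HFD CD169-DTR, with exact 95% Poisson intervals. Lpl, Fabp4, Igf1, Hp, Sfrp1 and Inhba are lower in Icam1-led cells, and Plin2, Txnip, Atf5, Dbp, Nr1d1, Stmn4 and Gdf15 are higher.

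On high fat diet, the 109 members of HFD CD169-DTR were set against the 15 of HFD WT, the pair of labels by which the study examined macrophage ablation. Depletion itself was not checked here. In the library labelled CD169-DTR 9 of 23 measured interferon-response genes, 7 of 14 sterol synthesis genes and 5 of 15 MHC class I genes were called higher, and 12 of 22 committed preadipocyte genes were called lower. Over all 4510 genes measured, 522 (11.6%) were called higher and 166 (3.68%) lower, and the median log2 ratio was 0.33. Without the Icam1-led cells 251 of 2882 genes (8.71%) were called higher and 98 (3.40%) lower. Under trimmed-mean (TMM) scaling the counts were 393 higher and 240 lower and the median 0.20. Genes entered with 50 UMIs over both pools, and the larger pool supplied most of these, so counts of higher genes are favoured. In summed counts fewer transcripts per cell and fewer cells with the transcript cannot be told apart, and cell counts are given for this reason.

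Of the called genes Gsn had the lowest ratio. Gsn (chr2:35256380-35307892, plus strand), which encodes the actin-severing protein gelsolin, was at 11900 CPM in ND WT, 5077 in ND CD169-DTR, 21629 in HFD WT and 1510 in HFD CD169-DTR. It was lower with the CD169-DTR label on both diets, with a log2 ratio of -3.84 (interval -3.92 to -3.76) on HFD. It had a UMI in 106 of 109 cells of HFD CD169-DTR. The cells above the Sult1e1 ceiling had 28151, 11072, 28003 and 1683 CPM of Gsn, and the other stromal cells 20633, 8854, 24413 and 1570 CPM. HFD CD169-DTR was the lowest library in all 3 sets of cells, and no difference between the sets was tested.

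More committed preadipocyte genes were lower than higher in HFD CD169-DTR. Of 22 measured, 12 were called lower and 1 higher, and the median log2 ratio was -1.0. Lpl and Col4a1 had log2 ratios of -1.0 each (intervals -1.16 to -0.84 and -1.19 to -0.82). Smoc2, a matricellular protein, was at 710, 162, 531 and 47.4 CPM in ND WT, ND CD169-DTR, HFD WT and HFD CD169-DTR. Trf, the iron carrier, was at 1774, 984, 866 and 106 CPM. Penk, the enkephalin precursor, was at 218, 87.8, 189 and 23 CPM. All 3 were lowest in HFD CD169-DTR. Without the Icam1-led cells 6 of 20 measured genes of the list were lower, 1 was higher and the median was -0.47. Of all genes 3.40% were then lower and 8.71% higher. Icam1-led cells were 26 of 109 in HFD CD169-DTR, with a median of 22218.5 UMIs, and 3 of 15 in HFD WT, with 8126 UMIs, so that they weighed more in the former pool. Fabp4 had a log2 ratio of -0.10 (interval -0.37 to 0.18), and 1 cell held 52.1% of its 121 UMIs in HFD WT.

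Part of the interferon-response genes was higher in HFD CD169-DTR. Of 23 measured members of the 37-gene list, 9 were called higher and none lower, with a median log2 ratio of 1.42 in which 4 genes with no UMI in HFD WT stand at their bound. Without the Icam1-led cells 10 of 13 measured genes were higher, beside 8.71% of all genes, with a list median of 2.42. Ifi27l2a, a small interferon-induced membrane protein, was at 81.9, 567, 21.0 and 619 CPM in ND WT, ND CD169-DTR, HFD WT and HFD CD169-DTR. It had a UMI in 101 of 109 cells of HFD CD169-DTR and in 3 of 15 of HFD WT, and the log2 ratio was 4.88 (interval 3.33 to 7.17). Bst2 (tetherin), which holds budding viruses at the membrane, was at 27.3, 582, 27.9 and 344 CPM. Isg15, a ubiquitin-like modifier, was at 191, 1604, 0 and 246 CPM, and the log2 ratio on HFD was at least 3.56, set against the floor of 3 UMIs in HFD WT. All 3 were higher in the library labelled CD169-DTR on each diet. The interferon-inducible GTPase Iigp1 was at 27.3, 598, 6.99 and 126 CPM. Cells thinned to 5500 UMIs had a median of 13, 37, 14.5 and 25 UMIs of the whole list in the 4 libraries, with 0, 3, 3 and 8 shallower members left out, again more with the CD169-DTR label on each diet.

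Part of the interferon list shares a short motif before its start sites. The bases GAAANNGAAA, in either direction (TTTCNNTTTC), are the core of the element bound by interferon-activated factors. They were looked for in the 250 bases before each RefSeq start (GRCm38.p6). They were present for 11 of 28 interferon-list genes with an entry (39.3%), for 10 of 11 interferon-inducible GTPases (90.9%), for 1 of 16 sterol synthesis genes, for 1 of 17 committed preadipocyte genes and for 936 of 27025 genes in all (3.46%). The 150 bases before 3 of these starts are shown, 5′ to 3′ in the direction of the gene, because their genes carry the interferon pattern. Capitals mark the motif, and runs of capitals longer than the motif are overlapping copies. A match is letters in a window, not a site shown to be bound.
Bst2, chr8:71537473-71537622, minus strand: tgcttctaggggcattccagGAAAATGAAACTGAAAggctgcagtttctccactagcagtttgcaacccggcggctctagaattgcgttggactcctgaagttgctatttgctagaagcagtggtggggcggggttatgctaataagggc
Isg15, chr4:156200819-156200968, minus strand: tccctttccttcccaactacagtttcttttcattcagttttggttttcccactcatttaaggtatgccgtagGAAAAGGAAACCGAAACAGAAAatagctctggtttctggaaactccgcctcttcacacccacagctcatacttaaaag
Ifit3, chr19:34583379-34583528, plus strand: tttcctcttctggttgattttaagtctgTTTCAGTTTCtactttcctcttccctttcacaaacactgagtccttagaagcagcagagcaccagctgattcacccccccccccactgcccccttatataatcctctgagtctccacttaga
The window of Isg15 holds 3 overlapping copies and that of Bst2 2. Ifit3, an interferon-induced RNA-binding protein, shows 1 copy here and had another farther from the start. Ifit3 was at 0, 707, 0 and 63.9 CPM in ND WT, ND CD169-DTR, HFD WT and HFD CD169-DTR, and its near copy Ifit3b may share its reads.

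MHC class I and chemokine genes were partly higher. Of 15 measured MHC class I genes 5 were called higher and none lower, with a median log2 ratio of 0.82. Without the Icam1-led cells 2 of 12 were higher, beside 8.71% of all genes. H2-K1, a classical class I gene, was at 1610, 2867, 559 and 1633 CPM in ND WT, ND CD169-DTR, HFD WT and HFD CD169-DTR. Of 12 measured chemokines 5 were higher and 2 lower. Ccl2 was at 382, 4391, 796 and 2873 CPM, and on HFD its log2 ratio was 1.85 (interval 1.58 to 2.13). Cxcl10, an interferon-induced chemokine, was at 164, 3777, 6.99 and 225 CPM, with 1 UMI in HFD WT. Cxcl14, a chemokine of resting tissue, was at 27.3, 26.6, 468 and 66.1 CPM, highest in HFD WT. Ccl2 and Cxcl10 were higher with the CD169-DTR label on both diets, and Cxcl14 was not higher on either.

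The sterol synthesis list summed highest in HFD CD169-DTR. Of 14 measured of the 24-gene list, 7 were called higher than in HFD WT and none lower, with a median log2 ratio of 1.65 in which 3 genes stand at their bound. Hmgcs1 (chr13:119690379-119708260, plus strand), which makes the first committed precursor of the pathway, was at 164, 69.2, 48.9 and 150 CPM. Fdps, a later enzyme, was at 0, 53.2, 14 and 126 CPM. Cyp51, which demethylates lanosterol, was at 109, 77.1, 0 and 147 CPM, a log2 ratio of at least 2.81 on HFD. The whole list summed to 737, 590, 370 and 1226 CPM. In cells thinned to 5500 UMIs the median was 3, 2, 2 and 6 UMIs of the list. ND WT was as high as HFD CD169-DTR for Hmgcs1, on 6 UMIs in 4 cells.

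Other called genes of the HFD comparison had fewer relatives on the lists. Angptl4, an inhibitor of Lpl, was at 54.6, 529, 412 and 1214 CPM, with a log2 ratio of 1.56 (interval 1.18 to 1.96) against HFD WT. Fbn1, the microfibril protein, was at 273, 814, 608 and 1422 CPM, a log2 ratio of 1.23 (interval 0.92 to 1.55). Acta2, smooth muscle actin, was at 210 CPM in HFD CD169-DTR and 6.99 in HFD WT, and 1 cell held 41.8% of its UMIs in the former. Mgp was lower, at 136, 1527, 9215 and 3215 CPM. Serping1, an inhibitor of complement C1, was at 2347, 2109, 2955 and 1445 CPM, a log2 ratio of -1.03 (interval -1.18 to -0.88). Lyz2, Cd74 and H2-Ab1, genes of macrophages and antigen-presenting cells, were also among the 8 lowest, with log2 ratios of -3.52, -3.34 and -2.49. In HFD WT 1 cell held 98.6% of Lyz2 and 97.3% of Cd74. Without each gene's top cell the ratios of Lyz2 and Cd74 were 2.32 and 0.62, so their direction was that of 1 cell. Without the member marked as a doublet they were 2.49 and 1.71, so the marked member was that cell.

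**Figure D4:**
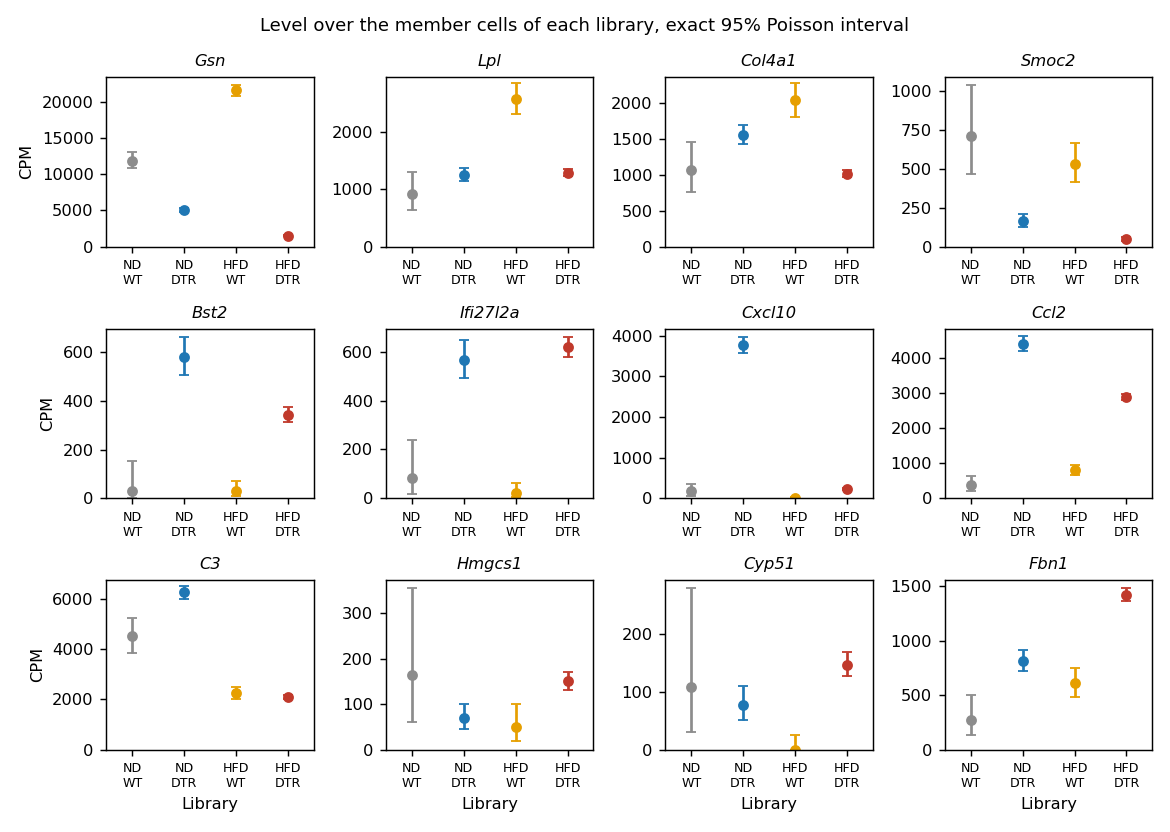
Levels (CPM, linear axes) of 12 genes in the members of each library, with exact 95% Poisson intervals. Points are single libraries with 4, 25, 15 and 109 cells. Gsn and Smoc2 are lowest in HFD CD169-DTR, while Bst2, Ifi27l2a, Cxcl10 and Ccl2 are higher in both CD169-DTR libraries than in the WT library of the same diet.

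The diets were compared with the CD169-DTR label shared, as the 109 members of HFD CD169-DTR against the 25 of ND CD169-DTR. On HFD 8 of 10 measured acute phase, 6 of 10 complement and 17 of 27 interferon-response genes were called lower. Of the measured genes 9 of 14 for sterol synthesis, 8 of 24 for proteoglycans and matricellular proteins and 5 of 23 for collagens were called higher. Of 5002 genes measured, 363 (7.26%) were called higher and 178 (3.56%) lower, and the median log2 ratio was 0.11. Without the shared barcodes, 487 of 4735 genes (10.3%) were called higher and 204 (4.31%) lower. The counts without these barcodes below stand beside those shares.

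Most measured acute phase and complement genes were lower in HFD CD169-DTR. Of 10 measured acute phase genes 8 were called lower and none higher, with a median of -1.75, and of 10 measured complement genes 6 were lower and none higher, with a median of -1.05. Without the 4 shared barcodes 9 of 10 acute phase genes (median -2.01) and 5 of 10 complement genes (median -1.02) were lower, and none was higher. C3, the central complement component, was at 4504, 6250, 2243 and 2084 CPM in ND WT, ND CD169-DTR, HFD WT and HFD CD169-DTR, a log2 ratio of -1.58 (interval -1.66 to -1.51). Lcn2, an iron-scavenging lipocalin, was at 0, 431, 6.99 and 40.2 CPM. Hp was at 300.2, 840, 140 and 338 CPM and Saa3, serum amyloid A of fat and macrophages, at 0, 755, 0 and 156 CPM. C3 was lower on HFD with either label, and Lcn2, Hp and Saa3 were each highest in ND CD169-DTR. The log2 ratio of Saa3 was -2.28, but 0.11 without the Icam1-led cells and 0.09 with a rule sum of at least 12, so its direction depended on which cells were counted. Clu, a chaperone, was at 901, 346, 0 and 30.2 CPM, with 92.3% of the ND CD169-DTR UMIs in 1 cell, and its ratio of -3.52 did not hold when the gate was set on thinned cells (1.36).

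Most measured interferon-response genes were lower on HFD. Of 27 measured 17 were called lower and none higher, with a median of -1.53. Of 8 measured interferon-inducible GTPases 8 were lower, with a median of -2.10, among them Gbp2 at 164, 327, 27.9 and 111 CPM, whose family shares similar sequence. The size rested in part on 1 cell. A single member of ND CD169-DTR, with 39493 UMIs, 118 of Icam1 and 5 of Col15a1, held 1657 of the pool's 4229 interferon-list UMIs (39.2%). It held 996 of 1420 UMIs of Cxcl10 (70.1%), 80.8% of Ifit3 and 92.8% of Tslp, a cytokine of barrier tissue. Its barcode sequence occurred in another library. Without it the list was at 7644 CPM in place of 11248. Without the 4 shared barcodes 10 of 24 measured interferon genes were lower, with a median of -0.83, and 6 of 6 measured GTPases were lower, with a median of -1.66. MHC class I genes went from 8 lower of 16 to none lower and 1 higher of 15. Cxcl10 had a log2 ratio of -4.07 (interval -4.25 to -3.89), and of -2.57 without the shared barcodes. Rsad2, an antiviral enzyme at 0, 295, 27.9 and 20.1 CPM, had ratios of -3.88 and -3.53. Ifi27l2a did not follow, with a log2 ratio of 0.13 (interval -0.09 to 0.35). Cxcl13, a chemokine for B cells, had 582 UMIs in 6 cells of ND CD169-DTR and none in any other library.

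Preadipocyte genes were mixed between the diets. Of 23 measured 8 were called lower on HFD and 1 higher, with a median of -0.77. Lpl had a log2 ratio of 0.04 (interval -0.10 to 0.19) and Col4a1 one of -0.62. Agt (angiotensinogen) was at 273, 168, 97.8 and 41.7 CPM in ND WT, ND CD169-DTR, HFD WT and HFD CD169-DTR, lower on HFD with either label. Apod, a lipid-binding lipocalin, was at 246, 340, 119 and 36.6 CPM, with 66.4% of the ND CD169-DTR UMIs in 1 cell. Without the shared barcodes 10 of 23 genes were lower and 2 higher. Igf1 was at 792, 322, 265 and 338 CPM.

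Sterol synthesis genes, and part of the matrix genes, were higher on HFD. Of 14 measured sterol genes 9 were called higher and none lower, with a median of 1.26. Fdft1, the squalene synthase, was at 0, 10.6, 6.99 and 47.4 CPM. Of 24 measured proteoglycan and matricellular genes 8 were higher and none lower, and of 23 measured collagen genes 5 were higher and 1 lower, with medians of 0.63 and 0.66. Without the shared barcodes 10 of 14, 8 of 23 and 4 of 23 were higher and none, 1 and 2 lower. Sparc, a collagen-binding matricellular protein, was at 3821, 7569, 11394 and 14269 CPM, below the 2-fold line with a log2 ratio of 0.91. Postn (periostin) was at 27.3, 569, 908 and 1546 CPM, Mfap4, a microfibril protein, at 27.3, 31.9, 76.8 and 220 CPM and Fmod (fibromodulin) at 246, 7.98, 21.0 and 69.7 CPM. Sparc, Postn and Mfap4 had one order over the 4 libraries, lowest in ND WT and highest in HFD CD169-DTR. Stmn4 and Dbp, with no UMI in ND CD169-DTR, had log2 ratios of at least 3.96 and 3.87, and their UMIs lay mainly in the Icam1-led cells described above. Stmn4 had a ratio of -0.25 with the gate set on cells thinned to 5000 UMIs, so its direction depended on the gate.

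**Figure D5:**
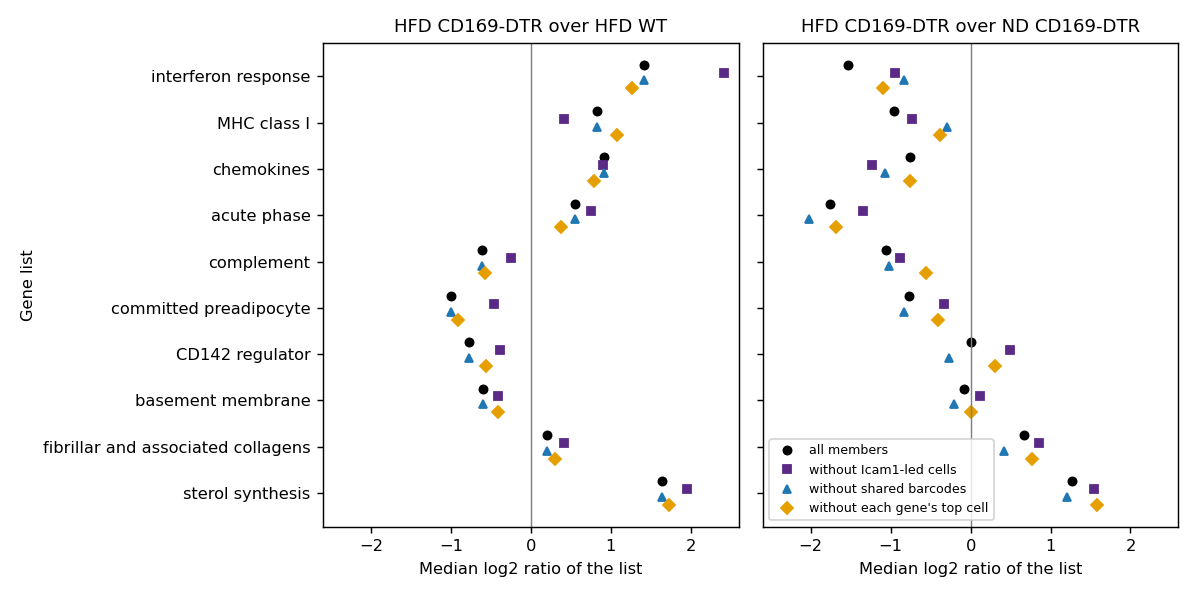
Median log2 ratio (x axis) of the measured genes of each list for CD169-DTR over WT on HFD and for HFD over ND with the CD169-DTR label, under the main setting and 3 alternatives. Interferon response is positive in the first comparison and negative in the second under all 4 settings, and sterol synthesis is positive in both.

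The same 2 comparisons were made in the 1426 cells above the Sult1e1 ceiling and in all 6185 other stromal cells, which include the former. They share the libraries with the members but no cell. For interferon response on HFD, CD169-DTR over WT, 26 of 31 measured genes were higher in the cells above the Sult1e1 ceiling (median 2.13) and 31 of 36 in the other stromal cells (2.23), beside 9 of 23 in the members (1.42). For sterol synthesis, HFD over ND with the CD169-DTR label, 22 of 24 (2.19) and 23 of 24 (2.16) were higher, beside 9 of 14 (1.26). For the committed preadipocyte list on HFD, CD169-DTR over WT, 9 of 26 (-0.27) and 10 of 28 (-0.64) were lower, beside 12 of 22 (-1.0). Acute phase genes on HFD over ND with that label were lower for 11 of 16 (-1.28) and 14 of 17 (-1.70), beside 8 of 10 (-1.75). The medians of each list had the same direction in every set, with more genes measured outside the members. The share of all genes called in these 2 sets is not given here. The nearest background is the gate without the Sult1e1 ceiling, which also holds the members and keeps the later steps. For CD169-DTR over WT on HFD it called 827 of 8636 genes higher (9.58%) and 273 lower (3.16%). For HFD over ND with the CD169-DTR label it called 511 of 9032 higher (5.66%) and 397 lower (4.40%). No difference between the sets was tested.

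The comparisons that use ND WT rest on 4 cells with 36637 UMIs together. For CD169-DTR over WT on ND, 151 of 1353 genes measured were called higher (11.2%) and 64 lower (4.73%), and TMM scaling gave 339 and 33, with the median over all genes moving from 0.30 to 0.68. Interferon genes were higher for 10 of 19 measured and lower for 1, and acute phase genes were higher for 4 of 8. Bst2 and Iigp1 had log2 ratios of 4.42 (interval 1.92 to 9.73) and 4.45 (interval 1.96 to 9.76), each on 1 UMI in ND WT. The immediate early genes Fos, Fosb and Jun were lower, with ratios of -2.30, -2.23 and -2.24, and 1 cell held 76.3% of Fos in ND WT. Fos had a ratio of 0.48 with a rule sum of at least 12, and with the gate on thinned cells Fos was at 2.25 and Jun at 1.06, so the direction of both depended on the gate. For HFD over ND with the WT label, 90 of 534 genes measured were called higher (16.9%) and 36 lower (6.74%), and TMM scaling gave 164 and 15. Mgp was at 136 and 9215 CPM, and Postn at 27.3 and 908 CPM, higher on HFD. Of 12 measured committed preadipocyte genes 5 were higher and 1 lower. A value in 4 cells cannot be told apart from that of 1 of them for most genes here.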

How the data were processed

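Cells came from single-cell 3′ RNA libraries (10x Genomics v3 chemistry). Per the submitters' processing notes, the authors used Cell Ranger 3.1.0 and mm10. The deposited matrix holds whole UMI counts for 31053 genes and 22703 barcodes, pooled over 4 libraries. Barcodes were assigned to libraries by suffix, in the order of the deposited aggregation list. Counts were summed per library and given as CPM. Shares have exact binomial (Clopper-Pearson), levels exact Poisson and ratios conditional exact binomial 95% intervals. A pool at 0 was set to a floor of 3 UMIs. Intervals assume independent molecules. The members and gene lists were chosen with earlier results of these data known. Named genes were the 8 highest and 8 lowest called per comparison (mitochondrial, ribosomal, predicted and rule genes left out) and, per list, the 2 with most UMIs and 2 with the largest ratio. Genes added to trace a pattern were picked after their values were seen, and so were Txnip, Atf5 and the others of the Icam1 division. Doublets were marked with Scrublet (scanpy 1.11.5, expected rate 5.4%) and kept. It marked 0.690 to 1.37% of cells. TMM factors came from edgeR 4.0.16, used for scaling alone. Other tools were Python 3.11.15, numpy 2.4.6, scipy 1.17.1 and pandas 2.3.3. Gene positions are from GENCODE on GRCm38. The code was tested on simulated data. Alternatives covered the gate, filters, scaling, count minimum, shared barcodes and each gene's top cell.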

Additional observations from a re-analysis of the deposited data

Results flagged for a closer look

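Some genes differed in direction between the 2 diets or the 2 labels. These differences were not tested, and each uses the 4 cells of ND WT. For CD169-DTR over WT, Csrp2 had a log2 ratio of -2.36 on ND and 1.58 on HFD, Hspb1 of -2.18 and 2.07, Mgp of 3.48 and -1.52, Mmp3 of 2.79 and -2.62, and Ugdh of 1.57 and -1.68. For HFD over ND, Jun had a log2 ratio of -1.20 with the WT label and 1.15 with the CD169-DTR label, and Mmp3 of 3.94 and -1.47. In ND WT 1 cell held all 32 UMIs of Csrp2 and 98.4% of the UMIs of Hspb1, and Mmp3 had 1 UMI.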

How the results depend on the processing

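Each group is 1 library, so differences between animals, sorts and library preparations cannot be told apart from those between groups. No paired analysis was possible because each group is 1 library. The shares kept their order over the libraries under the other alternatives that were run, with 2 exceptions: without the Sult1e1 ceiling, and with the gate on thinned cells, where both CD169-DTR libraries stood at 6.50 and 6.49%. Leaving out Icam1-led cells, shared barcodes, the Sult1e1 ceiling and top cells were chosen after seeing the data. The cause of each change below was not tested, except that a higher minimum tests fewer genes and a lower one more.

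With a rule sum of at least 5, the share of members was 3.68% in ND CD169-DTR and 6.24% in HFD CD169-DTR. With a rule sum of at least 12, the share of members was 1.36% in ND CD169-DTR, 0.494% in HFD WT and 2.74% in HFD CD169-DTR. With the gate set on cells thinned to 5000 UMIs, the share of members was 6.5% in ND CD169-DTR, 2.41% in HFD WT and 6.49% in HFD CD169-DTR. Without Icam1-led cells, the share of members was 3.16% in HFD CD169-DTR. Without the Sult1e1 ceiling, the share of members was 32.9% in ND WT, 36.9% in ND CD169-DTR, 22.2% in HFD WT and 7.5% in HFD CD169-DTR. With a rule sum of at least 12, called genes numbered 100 higher for CD169-DTR over WT on ND. With the gate set on cells thinned to 5000 UMIs, called genes numbered 300 higher and 122 lower for CD169-DTR over WT on ND, 861 higher for CD169-DTR over WT on HFD, 155 higher and 86 lower for HFD over ND in WT. Without Icam1-led cells, called genes numbered 75 higher for CD169-DTR over WT on ND, 251 higher and 98 lower for CD169-DTR over WT on HFD, 220 higher for HFD over ND in CD169-DTR. Without the Sult1e1 ceiling, called genes numbered 450 higher and 236 lower for CD169-DTR over WT on ND, 827 higher and 273 lower for CD169-DTR over WT on HFD, 217 higher and 365 lower for HFD over ND in WT, 397 lower for HFD over ND in CD169-DTR. With TMM scaling, called genes numbered 339 higher and 33 lower for CD169-DTR over WT on ND, 164 higher and 15 lower for HFD over ND in WT. With a minimum of 10 UMIs, called genes numbered 180 lower for CD169-DTR over WT on ND, 290 lower for CD169-DTR over WT on HFD, 139 lower for HFD over ND in WT, 354 lower for HFD over ND in CD169-DTR. With a minimum of 200 UMIs, called genes numbered 52 higher and 16 lower for CD169-DTR over WT on ND, 159 higher and 61 lower for CD169-DTR over WT on HFD, 23 higher and 7 lower for HFD over ND in WT, 60 higher and 63 lower for HFD over ND in CD169-DTR. Without each gene's top cell, called genes numbered 24 lower for CD169-DTR over WT on ND, 95 lower for CD169-DTR over WT on HFD, 139 higher and 12 lower for HFD over ND in WT, 584 higher for HFD over ND in CD169-DTR.

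These log2 ratios changed sign. With a rule sum of at least 12, CD169-DTR over WT on ND was 0.48 for Fos and -1.63 for Hmox1. With a rule sum of at least 12, HFD over ND in WT was -0.0059 for Ccl2, 0.64 for Fos and 0.44 for Jun. With a rule sum of at least 12, HFD over ND in CD169-DTR was 0.092 for Saa3. With the gate set on cells thinned to 5000 UMIs, CD169-DTR over WT on ND was 2.25 for Fos, -1.19 for Hmox1, 0.55 for Irf1, 1.06 for Jun, 0.17 for Ppp1r15a and 0.24 for Sfrp1. With the gate set on cells thinned to 5000 UMIs, CD169-DTR over WT on HFD was -0.24 for Atf5. With the gate set on cells thinned to 5000 UMIs, HFD over ND in WT was -0.013 for the median of the glucocorticoid response list, -0.76 for Ccl2, 2.08 for Fos, -0.20 for Hk2, 1.31 for Jun and 0.43 for Ppp1r15a. With the gate set on cells thinned to 5000 UMIs, HFD over ND in CD169-DTR was -0.27 for Atf5, 1.36 for Clu, -0.92 for Cxcl14 and -0.25 for Stmn4. Without Icam1-led cells, CD169-DTR over WT on ND was 1.55 for Clu, 0.51 for Csrp2, 2.61 for Hspb1 and -0.54 for Plin2. Without Icam1-led cells, CD169-DTR over WT on HFD was -0.67 for Atf5 and -0.48 for Txnip. Without Icam1-led cells, HFD over ND in WT was 1.99 for Igfbp6 and 0.23 for Lgals1. Without Icam1-led cells, HFD over ND in CD169-DTR was 0.11 for Saa3. Without the Sult1e1 ceiling, CD169-DTR over WT on ND was 1.29 for Clu, 0.26 for Csrp2, 0.16 for Fos, -0.50 for Hmox1, 0.028 for Hspb1 and 0.34 for Sfrp1. Without the Sult1e1 ceiling, CD169-DTR over WT on HFD was 0.095 for the median of the macrophage and monocyte list and 0.19 for Lyz2. Without the Sult1e1 ceiling, HFD over ND in WT was -0.14 for the median of the early progenitor list, -0.34 for the median of the glucocorticoid response list, -0.75 for Ccl2, 0.70 for Fos, -0.18 for Hk2, 1.17 for Hspb1, 0.56 for Igfbp6, 0.41 for Jun, 0.61 for Lgals1 and 0.069 for Ppp1r15a. Without the Sult1e1 ceiling, HFD over ND in CD169-DTR was 0.75 for Clu, -0.070 for Cxcl14 and 1.17 for H2-Q6. With a minimum of 10 UMIs, CD169-DTR over WT on ND was -0.13 for the median of the lipid uptake and storage list. Without each gene's top cell, CD169-DTR over WT on ND was 1.79 for Hspb1 and -1.33 for Tslp. Without each gene's top cell, CD169-DTR over WT on HFD was 0.56 for the median of the macrophage and monocyte list, 0.62 for Cd74 and 2.32 for Lyz2. Without each gene's top cell, HFD over ND in WT was 0.95 for Hspb1, 0.16 for Lgals1 and 0.17 for Trf. Without each gene's top cell, HFD over ND in CD169-DTR was 0.37 for H2-Q6. Without marked doublets, CD169-DTR over WT on HFD was 1.71 for Cd74 and 2.49 for Lyz2. Without shared barcodes, CD169-DTR over WT on ND was -0.36 for Hmox1. Without shared barcodes, HFD over ND in CD169-DTR was 2.35 for H2-Q6.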
